A study of Mus musculus with 6 samples.

Results

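The ADAM, ADAMTS, MMP and TIMP genes encode metalloproteases of the cell surface and the extracellular matrix, with the inhibitors that hold them in check. They were taken as all genes whose symbol is one of these names followed by a digit, leaving out Mmp12, and this rule found 76 genes among the 22180 genes measured: 33 ADAM, 18 ADAMTS, 21 MMP and 4 TIMP genes. Their expression was compared in CD4 T cells sorted from the lungs of wild-type mice sensitised to and challenged with house dust mite (HDM, an allergen extract that provokes allergic airway inflammation) or PBS, the saline vehicle, with 3 Affymetrix arrays for HDM and 3 for PBS. All mice were wild type (WT), and the sources used here give no dose, day, age or number of mice per sample. The sorted cells carried CD45 and CD4 and lacked CD11b and F4/80, surface proteins of myeloid cells. The p-values test the mean difference against the spread between samples within a group, moderated with the spread of all genes. The titles call the samples biological replicates, and precision is limited by the number of arrays.

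ADAMs are membrane proteins, several of which cut other surface proteins close to the membrane and release their outer part, a process called shedding. ADAMTS enzymes are secreted and act on matrix proteins, and MMPs cleave collagens, other matrix proteins and many soluble factors. TIMPs bind the active site of MMPs and of some ADAMs. In the lung these enzymes are known for their part in leukocyte migration through basement membranes and in remodelling of the airway wall.

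All values are log2 signals that the authors computed per probe set with RMA, and differences are HDM minus PBS. A gene was called when limma's moderated test gave a Benjamini-Hochberg adjusted p under 0.05 over the 22180 genes. Signals of different probe sets cannot be ranked as amounts of RNA, and the file gives no detection call. Signal percentiles, the brightest genes and summed marker signals below therefore describe probe set brightness, not amounts of RNA or of cells. Of the 76 genes, 20 had a mean signal above the median of all genes and 28 lay below the 25th percentile. Median array signals lay between 6.57 and 6.64. The summed linear signal of 8 measured T cell markers was 39101 to 41103 in HDM arrays and 37321 to 38018 in PBS arrays, and no marker of that list was called by limma's test, while Cd3g (0.19) and Cd5 (0.19) were higher with the replicate number as a block (adjusted p = 0.0308 and 0.0458).

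HDM cells had higher levels of 6 of the 76 genes: Adam8, Adam19, Mmp9, Mmp25, Adam33 and Timp2. None was called lower by limma's test, while 15 genes (19.7%, beside 17.8% of all genes) had an unadjusted p under 0.05. Of these, 13 were higher in HDM, beside 8.67% of all genes, and 2 were lower, beside 9.17%. The 6 genes are 7.89% of the 76, beside 2.39% of all genes called higher and 1.56% called lower. The median log2 fold change of the 76 genes was 0.01, beside −0.01 over all genes, and it was −0.01 for both after repeated quantile normalization. The 3 HDM values lay above all 3 PBS values for 16 of the genes (21.1%, against 10.8% of all genes) and below them for 3 (3.95%, against 11.8%). The 76 genes were chosen with earlier results of these data known, and Adam8 and Mmp9 led that choice. No share of the 76 genes given here or below is therefore independent evidence.

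**Figure D1:**
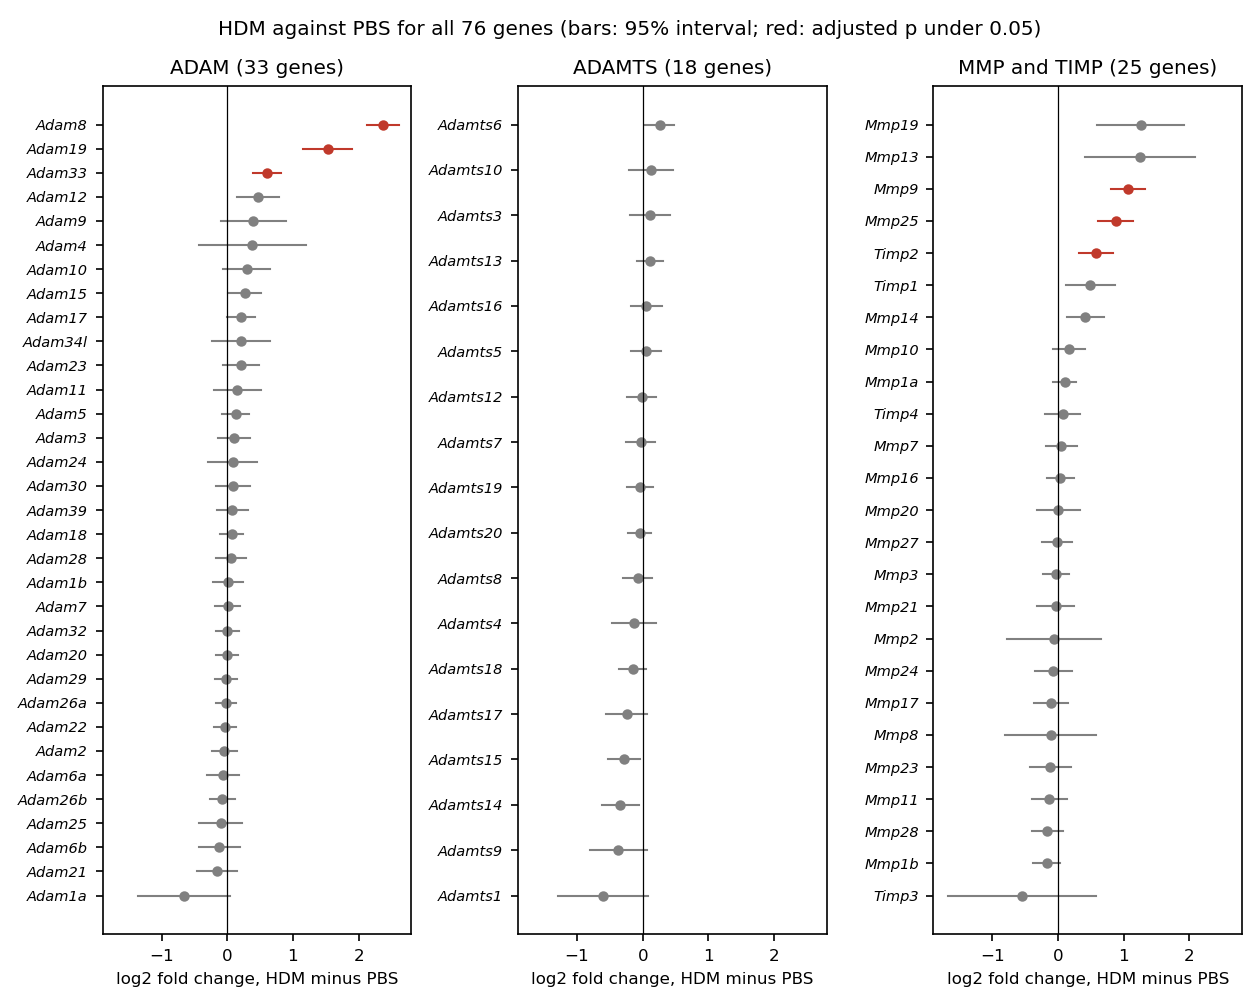
Log2 fold change (HDM minus PBS, horizontal axis) of each of the 76 genes, sorted within ADAM, ADAMTS and MMP with TIMP genes. Points are estimates, bars their 95% interval from limma, and red marks the 6 genes with adjusted p under 0.05, from 2.37 (Adam8) to 0.57 (Timp2).

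Adam8 encodes a membrane metalloprotease of leukocytes that is known to be raised in lungs of mice with allergic airway inflammation. Its signal was 10.30, 10.08 and 10.22 in HDM arrays, against 7.71, 7.82 and 7.95 in PBS arrays. The groups lay far apart, with no overlap and little spread within either. The difference was 5.18-fold (log2 fold change 2.37 ± 0.10 SE, n = 3 per group, limma adjusted p = 0.000178), which placed Adam8 at rank 11 of 22180 genes by fold change. Taken by replicate number, HDM exceeded PBS by 2.59 for number 1, 2.26 for number 2 and 2.27 for number 3. In RNA of a sorted bulk sample, more cells of a type and more RNA per cell cannot be told apart.

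Adam19, the meltrin beta gene, encodes an ADAM that cleaves neuregulins and is needed for heart development in mice. It had signals of 10.94, 10.76 and 10.53 in HDM arrays and 9.33, 9.42 and 8.90 in PBS arrays. All HDM values were above all PBS values, and in both groups replicate 3 was lowest. Adam19 rose 2.88-fold (1.53 ± 0.16, limma adjusted p = 0.00381). Another probe set of Adam19, which is dimmer, differed by 0.79 ± 0.16 in the same direction (limma adjusted p = 0.0547 over all probe sets of the array), so the size of the change depends on which probe set is read.

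The sequence before the transcription start of these 2 genes is shown because they changed most among the genes called. RefSeq (GRCm38.p6) promoters, 250 bases before to 50 after a start, were found for 46 of the 76 genes and for 4 of the 6 called genes: Adam8, Adam19, Mmp25 and Timp2. Motifs were searched on both strands, the AP-1 site TGAGTCA, the GATA site AGATAA, the RUNX site TGTGGT and the TATA box TATAAA, and no matches overlapped. The promoters of Adam8, Mmp25 and Timp2 held no match to any of them in this window. Adam19 has 3 starts in this table: one held 1 AP-1 match, which began 131 bases before the start, one held 1 RUNX match and the third held none. An AP-1 match was found in 5.20% of 32851 promoters, a RUNX match in 16.8%, a GATA match in 11.2% and a TATA match in 13.6%. Capitals mark the match.
Adam8, chr7:139992513-139992812, minus strand: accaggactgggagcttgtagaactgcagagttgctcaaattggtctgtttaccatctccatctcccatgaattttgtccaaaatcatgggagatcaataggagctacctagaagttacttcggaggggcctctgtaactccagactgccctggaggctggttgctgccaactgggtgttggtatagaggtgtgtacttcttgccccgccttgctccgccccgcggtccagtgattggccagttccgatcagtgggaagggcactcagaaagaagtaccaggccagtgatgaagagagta
Adam19, chr11:46055734-46056033, plus strand: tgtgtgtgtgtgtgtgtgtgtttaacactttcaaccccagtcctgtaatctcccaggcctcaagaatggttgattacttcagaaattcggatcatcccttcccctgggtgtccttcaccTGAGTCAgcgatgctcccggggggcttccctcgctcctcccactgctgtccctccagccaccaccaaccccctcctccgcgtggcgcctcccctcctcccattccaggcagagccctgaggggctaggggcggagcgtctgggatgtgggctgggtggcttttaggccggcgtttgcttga

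Among the other broadly expressed ADAMs, Adam33 also passed. Adam33, whose human counterpart was named in genetic studies of asthma and is expressed in airway smooth muscle and fibroblasts, had signals of 7.41, 7.29 and 7.26 in HDM arrays, against 6.79, 6.69 and 6.66 in PBS arrays. The groups did not overlap and the values within each lay close together. The difference was 1.52-fold (0.61 ± 0.09, limma adjusted p = 0.0132), and the call was lost without HDM replicate 1 (adjusted p = 0.061), HDM replicate 2 (0.0589) or PBS replicate 2 (0.0753).

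The 2 sheddases best known in T cells moved little. Adam10, which cuts Notch receptors, had signals of 10.91, 10.82 and 10.41 in HDM arrays and 10.60, 10.44 and 10.21 in PBS arrays, and the groups overlapped. Its difference was 0.29 ± 0.15 (95% interval −0.06 to 0.65, limma adjusted p = 0.375). The arrays with the same number differed by 0.31, 0.38 and 0.19, and with the replicate number as a block Adam10 was called (adjusted p = 0.0305). Adam17, the enzyme that releases TNF and L-selectin, had signals of 9.69, 9.49 and 9.58 in HDM arrays, against 9.37, 9.34 and 9.43 in PBS arrays. These groups did not overlap, yet the difference of 0.21 ± 0.09 did not pass (95% interval −0.000711 to 0.42, limma adjusted p = 0.282; with the replicate block 0.126).

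Of the 9 somatic ADAMs taken as 1 group, 3 rose (33.3%, beside 2.39% of all genes) and 6 did not pass. All 9 estimates were above 0, beside 48.4% of all genes (8 of the 9 without HDM replicate 2). The group was drawn up with earlier results of these data known and holds Adam8, so these shares are no independent evidence. The group's median was 0.40. Adam12, the meltrin alpha gene, had signals of 7.38, 7.42 and 7.86 in HDM arrays and 7.05, 7.15 and 7.06 in PBS arrays, a difference of 0.46 ± 0.14 (limma adjusted p = 0.123). HDM replicate 3 stood highest there. Adam15 had signals of 8.97, 8.83 and 8.92 in HDM arrays against 8.47, 8.78 and 8.68 in PBS arrays; the groups did not overlap, and the difference of 0.27 ± 0.11 did not pass (limma adjusted p = 0.244). A second probe set of Adam15 differed by 0.02 ± 0.13. Adam9 differed by 0.40 ± 0.21 and Adam28, an ADAM of lymphocytes, by 0.06 ± 0.10.

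The 20 measured ADAMs of testis and epididymis, many of which serve sperm maturation and egg binding, gave 0 calls with limma. Of all genes, 2.39% were called higher and 1.56% lower, and at these shares a list of 20 genes may hold no call. An unadjusted p under 0.05 was reached by 0 of the 20, beside 17.8% of all genes. Of the 20, 17 had a mean signal below the 25th percentile of all genes, and the group's median difference was −0.0013. Adam1a had the largest difference, with signals of 5.24, 5.57 and 5.75 in HDM arrays against 5.72, 5.88 and 6.94 in PBS arrays. PBS replicate 3 stood alone, and the difference of −0.66 ± 0.30 did not pass (limma adjusted p = 0.306), although it did with the replicate block (0.0453); without PBS replicate 3 it was −0.28. The 3 neural ADAMs without protease activity, Adam11, Adam22 and Adam23, lay between −0.03 and 0.20. Adam34l, whose symbol was on none of the role lists, differed by 0.21 ± 0.19.

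Mmp9 encodes gelatinase B, which degrades basement membrane collagen and is made by many leukocytes. Its signal was 8.84, 8.88 and 9.06 in HDM arrays, against 7.72, 7.86 and 8.02 in PBS arrays. All 3 HDM values were above the PBS values, by a margin several times the spread within a group. Mmp9 rose 2.09-fold (1.06 ± 0.11, limma adjusted p = 0.0041), and HDM exceeded PBS by 1.12, 1.02 and 1.05 for replicate numbers 1, 2 and 3. Mmp2, the other gelatinase and in most tissues a product of stromal cells, had signals of 6.82, 7.04 and 7.84 in HDM arrays and 6.92, 7.14 and 7.85 in PBS arrays. Both arrays numbered 3 were high, and the difference was −0.07 ± 0.31 (limma adjusted p = 0.947).

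Mmp25 encodes a membrane-anchored MMP known in humans as leukolysin, from neutrophils. It had signals of 8.83, 8.90 and 8.74 in HDM arrays and 7.89, 8.14 and 7.81 in PBS arrays. The groups did not overlap, and Mmp25 rose 1.84-fold (0.88 ± 0.11, limma adjusted p = 0.00738). Of 9 measured neutrophil markers, 0 were called by limma's test or with the replicate block, and at an unadjusted p under 0.05 there were also 0. Their summed linear signal was 634 to 982 in HDM arrays and 630 to 1165 in PBS arrays, and Ly6g, Camp and Ngp lay below the 25th percentile of all genes. Mmp8, the neutrophil collagenase, had signals of 6.04, 6.09 and 6.78 in HDM arrays, against 5.97, 6.21 and 7.06 in PBS arrays, and differed by −0.11 ± 0.30. Mmp14, the membrane-type MMP that activates pro-MMP2, differed by 0.42 ± 0.12 (limma adjusted p = 0.118), with signals of 7.47, 7.13 and 7.36 in HDM arrays against 6.74, 6.99 and 6.99 in PBS arrays. Of the 5 measured membrane-type MMPs, Mmp25 was the 1 that passed.

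**Figure D2:**
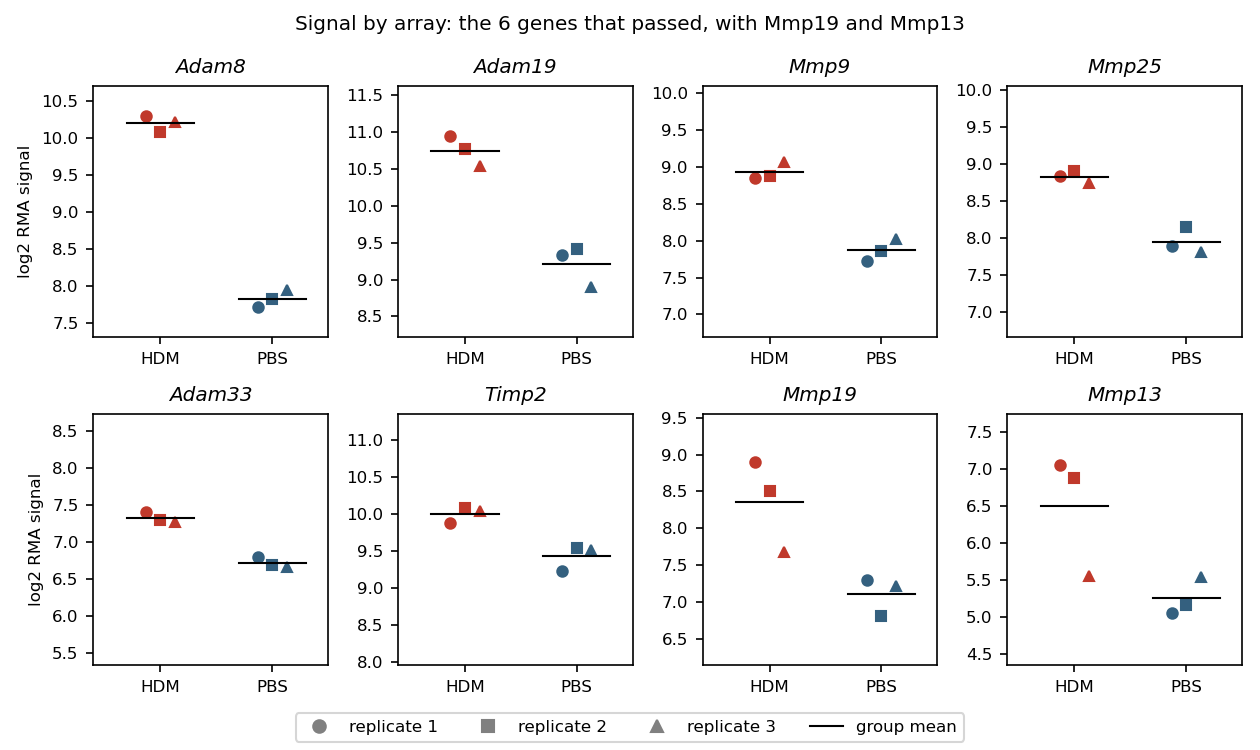
Log2 RMA signal (vertical axis, each panel spanning the same range) in the 3 HDM and 3 PBS arrays for the 6 genes that passed and for Mmp19 and Mmp13. Symbols mark the replicate number and lines the group mean; Adam8 averages 10.2 in HDM and 7.83 in PBS arrays, while HDM replicate 3 lies near the PBS arrays for Mmp13.

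Mmp19 and Mmp13 had larger estimates than Mmp9 but did not pass. Mmp19, a secreted MMP that cleaves basement membrane proteins, had signals of 8.90, 8.51 and 7.68 in HDM arrays, against 7.30, 6.81 and 7.22 in PBS arrays. HDM replicate 3 stood well below the other HDM arrays, though above all PBS arrays. The difference was 1.26 ± 0.29 (limma adjusted p = 0.0565), and it passed with the replicate block (0.0139), when genes below the 25th percentile or the median were left out (0.0458 and 0.0367) and without HDM replicate 3 (1.60, adjusted p = 0.00317). It was smaller without HDM replicate 1 (0.99, limma adjusted p = 0.155) or HDM replicate 2 (1.18, 0.200). Mmp19 passed in 5 of 16 alternatives. Mmp13, the main interstitial collagenase of mice, had signals of 7.05, 6.88 and 5.55 in HDM arrays and 5.05, 5.16 and 5.54 in PBS arrays. The arrays numbered 1 and 2 differed by 2.00 and 1.72, and those numbered 3 by 0.01. Over all arrays the difference was 1.24 ± 0.36 (limma adjusted p = 0.115), and without HDM replicate 3 it was 1.72 (adjusted p = 0.00156). Without HDM replicate 1 it was 0.97 (limma adjusted p = 0.298), and without HDM replicate 2 it was 1.05 (0.331). Mmp13 passed in 2 of 15 alternatives.

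The stromelysins and matrilysin showed no call, with differences between −0.14 (Mmp11) and 0.16 (Mmp10) over Mmp3, Mmp7, Mmp10 and Mmp11. The collagenase genes Mmp1a and Mmp1b, which are close copies whose probes may share signal, differed by 0.10 ± 0.08 and −0.18 ± 0.09. Mmp20, Mmp21, Mmp23, Mmp27 and Mmp28 lay between −0.16 (Mmp28) and 0.0043 (Mmp20).

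Of 12 measured macrophage markers, Chil3 (2.11 ± 0.38, limma adjusted p = 0.0248) and Itgax (1.06 ± 0.22, adjusted p = 0.038) rose and 10 did not pass. The share that rose was 16.7%, beside 2.39% of all genes. Chil3 lost the call without any 1 array numbered 1 or 2 (adjusted p of up to 0.11), and Itgax without HDM replicate 2 or any PBS array (up to 0.132) and when adjusted over all probe sets (0.0649). With the replicate block Csf1r (0.52) was called as well. The summed linear signal of the 12 was 7009 to 8898 in HDM arrays and 4332 to 4988 in PBS arrays, and none of the 12 lay below the 25th percentile of all genes. Chil3 carried most of that gap. Without it the other 11 summed to 5782, 3842 and 5939 in HDM arrays and to 3541, 3744 and 4645 in PBS arrays, and the groups overlapped. Of the genes of the sorting gate, Adgre1 (F4/80) had signals of 7.50, 7.02 and 7.95 in HDM arrays, against 6.91, 6.96 and 7.44 in PBS arrays, and Itgam (CD11b) had 7.31, 7.19 and 7.97 in HDM arrays, against 7.38, 7.30 and 7.84 in PBS arrays. The groups overlapped for both genes, with differences of 0.39 (adjusted p = 0.469) and −0.02 (0.984). Cd68 differed by 0.20 and Marco by −0.18. How much of the change in Adam8, Adam19, Mmp9, Mmp25, Mmp19, Mmp13 and Timp2 came with macrophage transcripts was not tested.

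Timp2, the inhibitor that also takes part in the activation of pro-MMP2, was the TIMP that rose. It had signals of 9.88, 10.08 and 10.04 in HDM arrays and 9.23, 9.54 and 9.52 in PBS arrays. The groups did not overlap, and in both of them replicate 1 was lowest. Timp2 rose 1.49-fold (0.57 ± 0.11, limma adjusted p = 0.0345); the call was lost without HDM replicate 1 (adjusted p = 0.0805), HDM replicate 2 (0.152), PBS replicate 1 (0.108) or PBS replicate 2 (0.103), and when adjusted over all probe sets (0.0569).

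Timp1, a soluble inhibitor that inflammation is known to raise in many tissues, had signals of 5.93, 5.51 and 5.43 in HDM arrays, against 5.26, 4.87 and 5.26 in PBS arrays. Its difference of 0.49 ± 0.16 did not pass (limma adjusted p = 0.152; with the replicate block 0.0427). The block was the 1 of 14 alternatives in which Timp1 passed, and its mean signal lay below the 25th percentile of all genes. Timp3, an inhibitor bound to the matrix, had signals of 5.997, 6.48 and 7.27 in HDM arrays and 6.11, 7.22 and 8.07 in PBS arrays. The values spread widely within both groups, and the difference was −0.55 ± 0.49 (95% interval −1.68 to 0.58), or −0.08 without PBS replicate 3 and −1.06 without PBS replicate 1. Timp4 had signals of 6.09, 6.09 and 6.19 in HDM arrays and 6.13, 5.82 and 6.21 in PBS arrays and differed by 0.07 ± 0.12.

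No ADAMTS gene was called by limma's test, in either direction, and 12 of the 18 estimates were negative (10 without PBS replicate 3). Of all genes, 2.39% were called higher, 1.56% were called lower and 48.4% had a positive estimate. An unadjusted p under 0.05 was reached by 3 of the 18 (16.7%, beside 17.8% of all genes). With the replicate block 1 was called lower and 0 higher, beside 6.01% and 5.95% of all genes. That gene, Adamts1, a protease of the proteoglycans aggrecan and versican, had signals of 6.46, 6.39 and 7.02 in HDM arrays, against 6.60, 7.28 and 7.80 in PBS arrays, a difference of −0.61 ± 0.30 (limma adjusted p = 0.343; with the block 0.042). The block was the 1 of 16 alternatives in which Adamts1 passed, and its difference was −0.32 without PBS replicate 3 and −0.92 without PBS replicate 1. Adamts9, another versican protease, differed by −0.38 ± 0.19. Adamts14, which trims the amino end of procollagens, had signals of 7.37, 7.74 and 7.64 in HDM arrays and 8.02, 7.87 and 7.88 in PBS arrays; the groups did not overlap and the difference of −0.34 ± 0.12 did not pass (limma adjusted p = 0.182). Adamts15 (−0.28 ± 0.11) and Adamts17 (−0.24 ± 0.13) were the other ADAMTS genes with every HDM value below the PBS values. Adamts6 had signals of 10.78, 10.59 and 10.45 in HDM arrays, against 10.32, 10.37 and 10.35 in PBS arrays (0.26 ± 0.10, limma adjusted p = 0.216), and Adamts10, an ADAMTS that binds fibrillin, had signals of 9.68, 9.52 and 9.27 in HDM arrays, against 9.56, 9.38 and 9.14 in PBS arrays (0.13 ± 0.14, limma adjusted p = 0.727).

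In Timp3, Adamts1, Adamts9, Mmp2 and Mmp8, replicate 3 was the highest array of both groups, as in 16 of the 76 genes (21.1%) and in 19.1% of all genes. Mmp9, Adam9, Adam1a, Timp4 and Mmp11 were also among the 16. Sums of fibroblast, endothelial, neutrophil, dendritic cell and B cell markers were all highest in replicate 3 of each group. Both arrays numbered 3 were highest for 85.7% of fibroblast and 50% of endothelial markers. For neutrophil, dendritic cell and B cell markers the shares were 77.8%, 80% and 100%, so the pattern was not particular to stromal markers. The 7 fibroblast and pericyte markers summed to 611, 680 and 953 in HDM arrays 1, 2 and 3 and to 692, 896 and 1235 in PBS arrays, and the 6 endothelial markers to 2674, 3008 and 4099 in HDM arrays against 3959, 5138 and 5338 in PBS arrays. Pecam1 carried most of the endothelial sum in every array. Its signals were 11.02, 11.04 and 11.25 in HDM arrays and 11.61, 11.64 and 11.58 in PBS arrays, lowest in PBS replicate 3. The other endothelial markers varied otherwise over the PBS arrays. Cdh5 (8.59, 9.94 and 10.27), Kdr and Cldn5 were highest in PBS replicate 3, and Tek and Vwf in PBS replicate 2. What the fall of Pecam1 says about endothelial cells was not tested. Of the endothelial markers Pecam1 fell (−0.51 ± 0.08, limma adjusted p = 0.0169; up to 0.0961 without an array numbered 1 or 2) and 5 did not pass, all 7 fibroblast markers did not pass, and Lum alone among these 13 lay below the 25th percentile. All 13 estimates were negative, beside 11443 of all 22180 genes. With the replicate block, 4 endothelial markers were lower, which were Pecam1, Kdr (adjusted p = 0.0235), Cdh5 (0.00979) and Tek (0.0163), as were 2 fibroblast markers, Pdgfra (0.0121) and Dcn (0.00353). In that fit 6.01% of all genes were lower. Cdh1, an epithelial marker, rose (0.82 ± 0.15, limma adjusted p = 0.0292; up to 0.113 without any 1 array other than HDM replicate 3). Its call was also lost when adjusted over all probe sets (0.0512) and with the mean of its probe sets, which gave 0.45 (0.0742). The other 5 epithelial, 4 B cell, 5 dendritic cell and 6 eosinophil and basophil markers measured did not pass, and of these Sftpc (−0.40), an epithelial marker, was lower with the block (0.0177). Epithelial and B cell sums varied widely within both groups. The epithelial markers summed to 3931, 8286 and 5725 in HDM arrays and to 3206, 8020 and 6166 in PBS arrays. The B cell markers summed to 571, 919 and 1643 in HDM arrays and to 629, 757 and 985 in PBS arrays. The part of other cells in the values of these proteases was not tested.

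**Figure D3:**
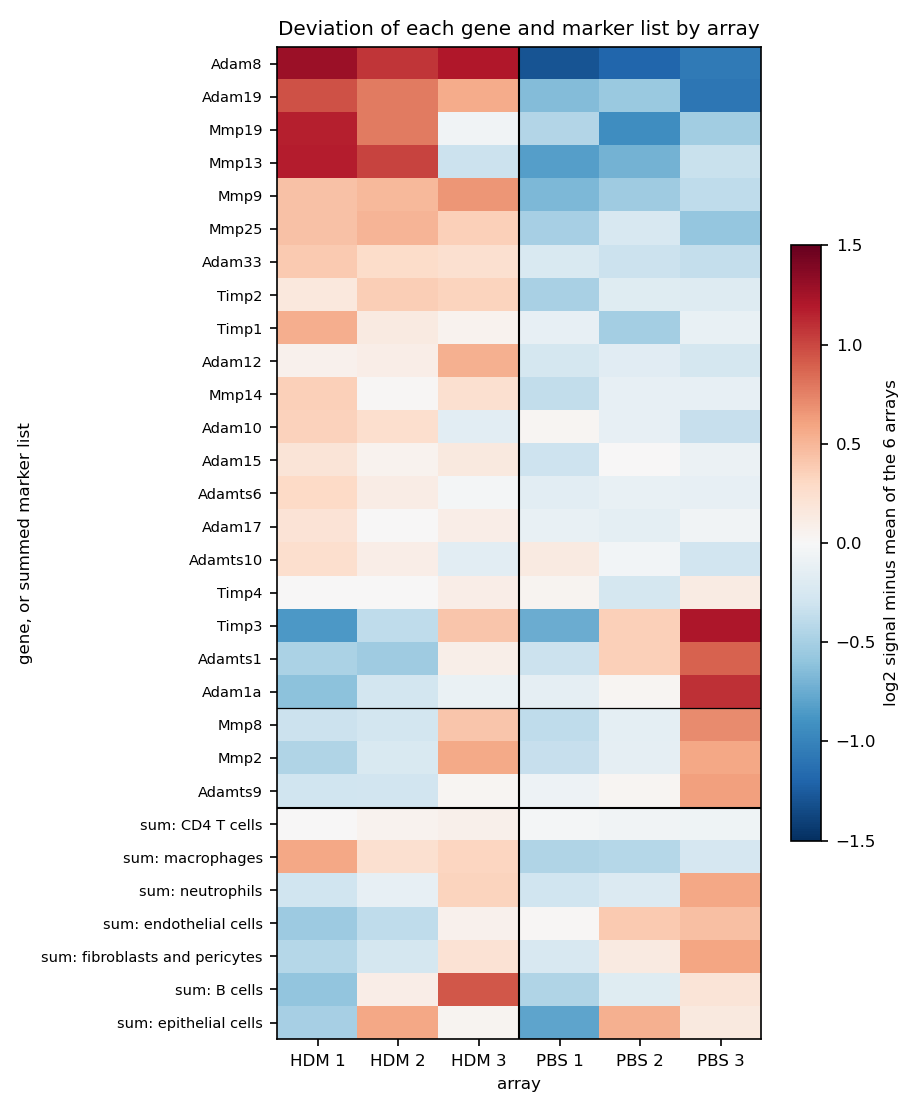
Log2 signal of the 20 genes chosen for description, of Mmp8, Mmp2 and Adamts9, and of 7 marker lists (log2 of their summed linear signal) in each array, as the deviation from the mean of the 6 arrays; HDM arrays are left of the line. Adam8, Adam19, Mmp9 and Mmp25 separate by treatment, while Timp3, Adamts1, Mmp8 and Mmp2 are highest in an array numbered 3, as are the fibroblast and neutrophil sums.

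The replicate numbers were also used as pairs, since the deviations of same-numbered arrays correlated above 0.1. With the number as a block, 9 of the 76 genes were higher (11.8%, against 5.95% of all genes) and 2 were lower, against 6.01% of all genes. The added genes were Adam10, Mmp19 and Timp1, higher, and Adam1a and Adamts1, lower. When both arrays numbered 3 were left out, a choice made after seeing the data, 11 genes were higher, against 5.64% of all genes, and 0 were lower, against 5.98%. These 11 were the 6 genes named first with Adam9, Adam10, Adamts6, Mmp13 and Mmp19. Mmp13 then differed by 1.86 (adjusted p = 0.000172) and Mmp19 by 1.65 (0.00134).

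Genes that act with these proteases were read from lists of known partners, activators, inhibitors and targets. Of 9 measured partners that carry ADAM10 or ADAM17 to the cell surface or steer them, 1 rose and 8 did not pass. That gene was Tspan17, a tetraspanin partner of ADAM10, with signals of 8.69, 8.64 and 8.75 in HDM arrays against 8.04, 8.23 and 8.31 in PBS arrays (0.50 ± 0.10, limma adjusted p = 0.0399; up to 0.15 without any 1 array other than PBS replicate 3, and 0.0636 when adjusted over all probe sets). Rhbdf2, which encodes iRhom2, the carrier of ADAM17, differed by 0.37 ± 0.11 (limma adjusted p = 0.111) and passed with the replicate block. The list's median was 0.13, and its 1 called gene was 11.1% of it, beside 2.39% of all genes called higher.

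None of 8 zymogen activators was called by limma's test. Furin, the convertase that removes the inhibitory prodomain of many ADAMs and membrane-type MMPs, had signals of 10.91, 10.89 and 11.35 in HDM arrays and 9.92, 10.11 and 10.66 in PBS arrays, with no overlap (0.82 ± 0.20, limma adjusted p = 0.07). Furin was higher and Plaur, the urokinase receptor gene, was lower with the replicate block, where no other gene of the list passed. Plaur had signals of 7.99, 7.85 and 9.39 in HDM arrays, against 8.82, 9.19 and 9.84 in PBS arrays (−0.87 ± 0.42). The 5 measured genes of other inhibitors and clearance, among them Reck (−0.14 ± 0.18), and the 8 of MMP inducers and related genes, among them Bsg (0.14 ± 0.11), held no call in that fit or with the block.

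The last list held 17 measured genes for surface proteins of T and other cells that are known to be shed. With the replicate block 9 were higher (52.9%, beside 5.95% of all genes) and 5 were lower, beside 6.01%. Without the block 5 rose (29.4%, beside 2.39% of all genes) and 12 did not pass. The 5 were Havcr2, the receptor TIM-3 (1.83 ± 0.32), Lag3, an inhibitory receptor that ADAM10 and ADAM17 cut (1.59 ± 0.15), Il2ra, the interleukin 2 receptor alpha chain (1.16 ± 0.10), Tnfsf11, the cytokine RANKL (1.15 ± 0.17), and Cd44, a hyaluronan receptor (1.15 ± 0.10), with limma adjusted p from 0.00245 to 0.0224. Havcr2 lost the call without HDM replicate 2 or without PBS replicate 1 or 2 (adjusted p of up to 0.112), and Tnfsf11 without HDM replicate 1 or 2 (up to 0.0621). The list's median difference was 0.61, beside −0.01 over all genes. These genes were known from earlier results of these data to be higher in HDM cells, so the count is no independent evidence. Tnfrsf1a, a TNF receptor released by ADAM17, had signals of 8.37, 8.34 and 8.86 in HDM arrays against 8.82, 9.34 and 9.68 in PBS arrays (−0.75 ± 0.23, limma adjusted p = 0.129), and Il6ra differed by −0.44 ± 0.17 (0.211).

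**Figure D4:**
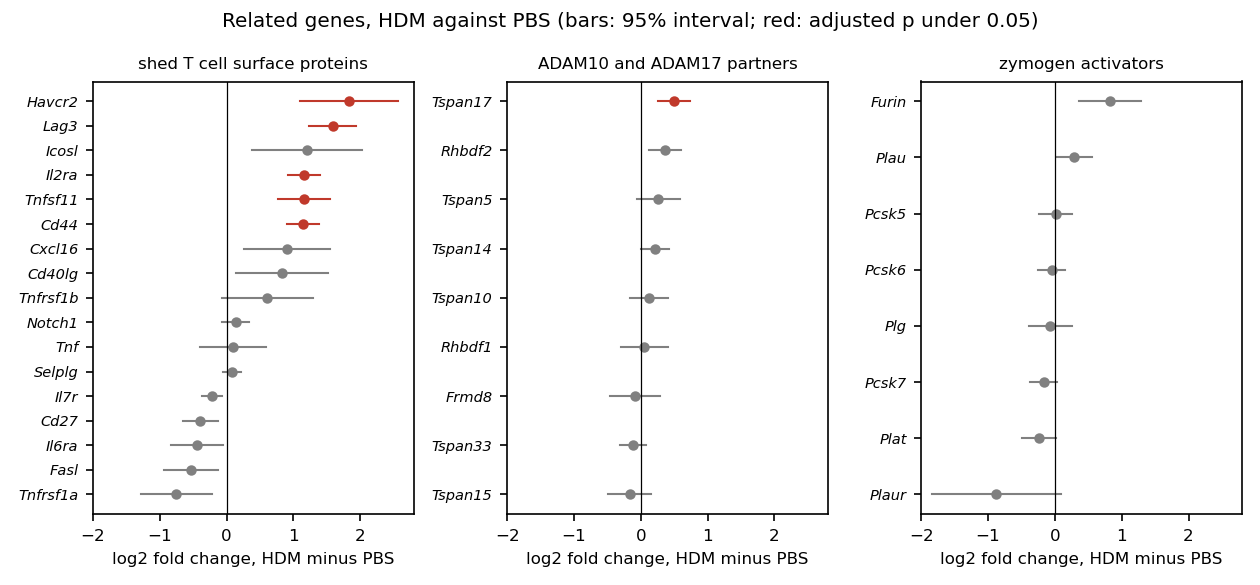
Log2 fold change (HDM minus PBS, horizontal axis) of genes for shed surface proteins, for partners of ADAM10 and ADAM17 and for zymogen activators. Points are estimates, bars their 95% interval from limma, and red marks adjusted p under 0.05: 5 of 17, 1 of 9 and 0 of 8 genes.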

How the data were processed

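RNA of CD4 T cells sorted from digested lung was labelled with biotin and hybridised to Affymetrix mouse arrays, 3 for HDM and 3 for PBS, 1 per sample. The authors deposited log2 signals per probe set made with RMA, which corrects background, quantile-normalizes the arrays and summarises each probe set, as the submitters' processing notes name it without a version, per the labels. After RMA all arrays have almost the same distribution, so a change of total RNA cannot be seen. Of 33960 probe sets, 23521 had exactly 1 symbol in the platform annotation and gave 22180 genes, the brightest probe set by mean over the 6 arrays standing for a gene. Adamts2, Adam34 and Mmp15 were not analysed here. Any 2 arrays shared at most 5 identical values.

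HDM was tested against PBS with limma 3.58.1 in R 4.3.3 (lmFit, and eBayes with an intensity trend; two-sided; Benjamini-Hochberg over 22180 genes; threshold 0.05), with no filter on low signal. The test was also run on simulated data, with an outcome that is not reported here. Values in every array are given for the genes that passed, Adam8, Mmp9, Adam10, Adam17, the TIMPs, the 8 with the largest other differences and the 8 brightest, 20 in all; Mmp2 and Mmp8 among others were added after their values were seen. The genes, the lists and the tests were chosen with earlier results of these data known. The labels do not say what replicate numbers stand for. Across genes, the deviations from the group mean of the HDM and PBS arrays with one number correlated at 0.43, 0.17 and 0.53 for numbers 1, 2 and 3, each above the minimum of 0.1 for treating numbers as pairs. HDM replicate 2 correlated more with PBS replicate 1 (0.25) than with PBS replicate 2. Alternatives covered low-signal filters, normalization, the variance model, the probe sets, the block and each array left out.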

Additional observations from a re-analysis of the deposited data

How the results depend on the processing

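Of the 6 genes called higher, Adam8 (adjusted p of up to 0.00353), Adam19 (0.027), Mmp9 (0.033) and Mmp25 (0.0477) passed in all 16 alternatives run, Adam33 in 13 and Timp2 in 11. With 1 array left out, 4 to 8 of the 76 genes were higher and 0 were lower. With the replicate block 2 were lower, and without both arrays numbered 3, chosen after seeing the data, 11 were higher; the cause was not tested. Over all genes, 531 were higher and 345 lower. These became 1319 and 1334 under the replicate block, 1250 and 1326 once the arrays numbered 3 were dropped, and 352 and 191 when adjusted over all probe sets, where more tests were counted. With genes below the median signal left out 557 were lower. With 1 array left out, 177 to 845 were higher and 41 to 722 lower. Timp4, which passed nowhere, changed sign without PBS replicate 2 (−0.045), within a range of −0.045 to 0.15 with 1 array left out. Signals near the low end of the arrays, as for most testis ADAMs, leave small differences undetectable.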
